A study of Mus musculus with 4 samples.

Results

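Endothelial cells line blood and lymphatic vessels. They are recognised by junction and surface proteins such as CDH5 and PECAM1, by the receptors for vascular endothelial growth factor (VEGF) and angiopoietins, and by a network of ETS, SOXF and bHLH transcription factors that keeps the vascular programme active. WNT ligands act on endothelium in some organs, best known in the brain, where they set barrier properties. Here, 35 genes of this kind were followed in the ureter, taken by their gene name from the 29924 names on the arrays. All 35 had at least 1 probe, and all 35 could be tested.

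The material was E12.5 ureters of wild-type NMRI mouse embryos of undetermined sex, cultured as explants for 18 h. One group received 10 µM IWP-2, a small molecule that blocks Porcupine and thereby the secretion of WNT ligands, and the control group received its solvent DMSO at 2:1000. Each of 4 two-colour arrays compared a pool of treated with a pool of control ureters, with the treated RNA in the red dye on arrays 1 and 3 and in the green dye on arrays 2 and 4. The labels call the arrays replicates but do not say that the pools came from separate cultures, so the p-values measure the spread between arrays, which may be technical. The study's text and methods differ on how many pools were used at this stage. If pairs of arrays shared RNA extracts, n would be 2 and the p-values would be too small. Across the 22461 genes, which are not independent replicates, the difference between arrays 1 and 3 had a correlation of -0.04 with that between arrays 2 and 4. Whole ureters contain epithelium, mesenchyme, vessels and blood cells. A change of an endothelial transcript may therefore reflect more or fewer endothelial cells as well as more or less RNA per cell, and these cannot be told apart.

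All 7 epithelial and all 6 mesenchymal markers tested were well above background in all 8 channels. Of 10 WNT target genes, 8 were lower with IWP-2, Axin2, the feedback inhibitor of the pathway, with a log2 ratio of -1.56 (SE 0.04, adjusted p = 1.23e-05). Median raw intensity per channel was between 368 and 711 against local background medians between 28 and 77, and no spot was saturated. Array 4 stood apart for the endothelial genes, as described below.

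Of the 35 endothelial genes, 18 were higher and 4 were lower with IWP-2 at an adjusted p below 0.05, and 13 did not pass the test. Over all 22461 genes tested, 18.1% were higher and 15.0% were lower by the same rule. In this fit, the share of endothelial genes that were higher (51.4%) was above that of all genes. Of the 4 lower genes, Angpt4 and Etv2 could be tested only through the control group, where they stood above background. Among the 33 endothelial genes well above background in both channels of all arrays, 2 were lower, against 15.2% of the 21761 genes tested in that way. With the 8 channels taken as separate samples rather than as pairs on an array, 8 of the 35 genes were higher and 3 were lower, against 9.05% and 9.21% of all genes. In the deposited table of fold changes, which is rounded to 1 decimal, 4 were higher and 1 was lower, against 8.16% and 9.13% of all genes. The 18 higher genes differed by between 1.10- and 1.55-fold, Lyve1 and Plvap were 1.43- and 1.19-fold lower, and no fitted change of the 33 genes measured in both channels reached 2-fold. For Angpt4 and Etv2, which were not above background with IWP-2, only a bound can be given. The largest increases were in Sox17, Angpt1, Esm1 and Cldn5, and the decreases were in Lyve1, Etv2, Angpt4 and Plvap. The median log2 ratio over the 35 genes was 0.15, and over all genes it was 0.00110. In this text, a log2 ratio is treated over control on 1 array or the mean of 4 arrays, a level is the normalised intensity of 1 channel in arbitrary units, and adjusted p-values come from limma with Benjamini-Hochberg adjustment over all genes tested.

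**Figure D1:**
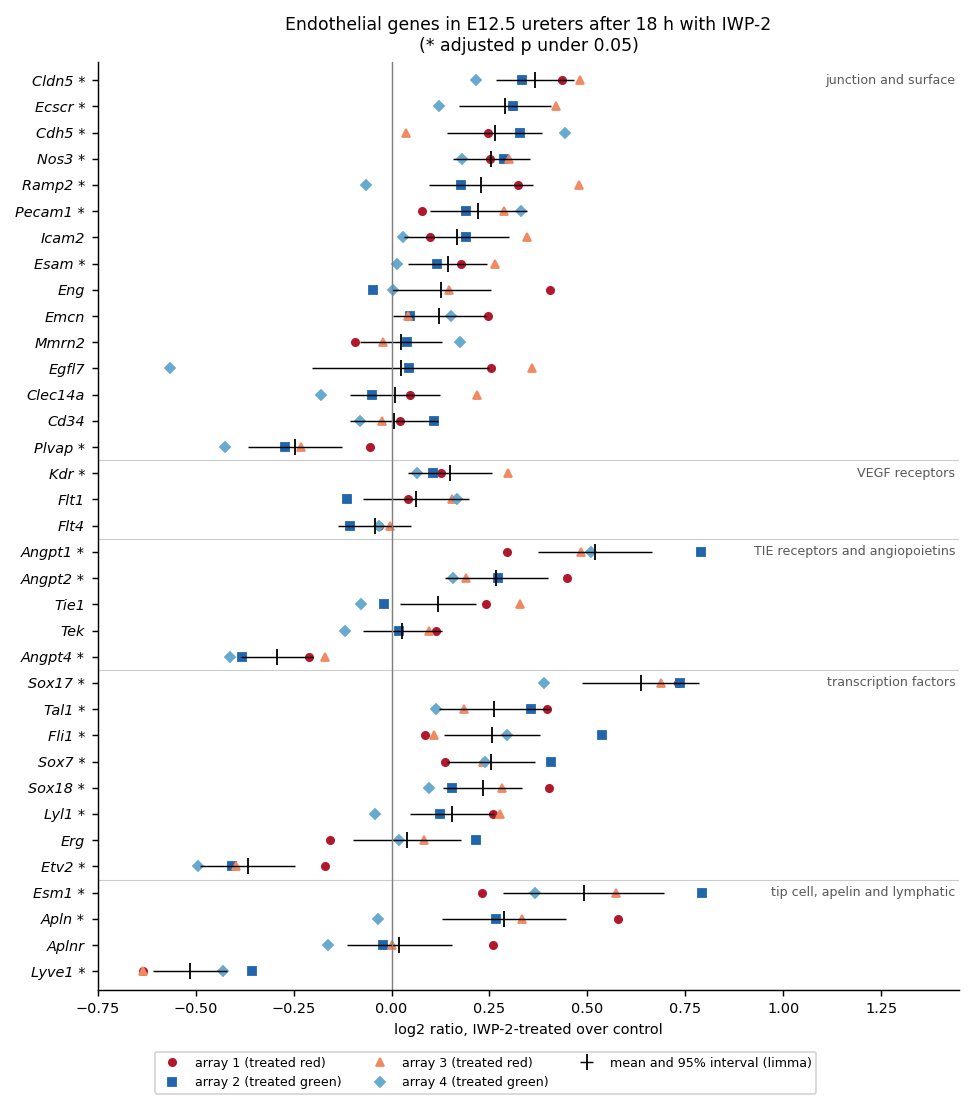
Log2 ratio (IWP-2-treated over control, x axis) of the 35 endothelial genes by role on each of the 4 arrays, with the mean and its 95% interval from limma; asterisks mark an adjusted p under 0.05. The 18 genes that were higher lie to the right of 0, from Kdr, Esam and Lyl1 near 0.15 to Sox17 at 0.64, and array 4 gave the lowest value in 22 of the 35.

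The 4 arrays did not carry the shift equally. The median over the 35 genes was 0.23 and 0.22 on arrays 1 and 3, where the treated RNA was red, and 0.12 and 0.03 on arrays 2 and 4, where it was green. The medians of all genes were between -0.00250 and 0.00937 on the 4 arrays. Array 4 gave the lowest of the 4 values in 22 of the 35 genes, and 21 genes were above 0 there, compared with 28, 25 and 28 on arrays 1, 2 and 3. Of the 18 genes called higher, all were above 0 on both arrays with treated RNA in red, and 15 were above 0 on both arrays with treated RNA in green. Ramp2, Lyl1 and Apln were the exceptions, each below 0 on array 4. On all 4 arrays, 17 of the 35 genes were above 0 and 5 were below 0, and the corresponding shares of all genes were 22.3% and 21.0%. The fit includes a dye term, which was above 0 in 25 of the 35 genes, with a median of 0.06 on the log2 scale. It passed the threshold in none of the 35 and in none of all 22461 genes, and at 4 arrays this does not show that dye effects were absent.

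Among the 15 junction and surface genes, 7 were higher (Cldn5, Ecscr, Cdh5, Nos3, Ramp2, Pecam1 and Esam), Plvap was lower and 7 did not pass. Cldn5 encodes claudin 5, the main tight junction protein of endothelium. Its probe at chr16:18778046-18778105 (mouse build mm9, as for all probe positions here) had levels of 8742, 8071, 7646 and 10299.6 in the control channel and 11828, 10164, 10678 and 11965 in the IWP-2 channel of arrays 1 to 4. The IWP-2 channel was the higher of the pair on every array, while the ranges of the 2 groups overlapped. The log2 ratio was 0.37 ± 0.12 (SD, n = 4), with an adjusted p of 0.00151. Cdh5 encodes VE-cadherin, the adherens junction protein of endothelial cells. Its probe at chr8:106668159-106668218 had levels of 12852, 11541, 13444 and 11433 in the control channel and 15234, 14479.7, 13796 and 15546 in the IWP-2 channel of arrays 1 to 4. These ranges did not overlap, but the difference on array 3 was small, with log2 ratios of 0.25, 0.33, 0.04 and 0.44 and an adjusted p of 0.00973. Pecam1 encodes the adhesion molecule CD31, which platelets and leukocytes share with endothelium. Its log2 ratios were 0.08, 0.19, 0.29 and 0.33, and the adjusted p of 0.0193 became 0.0835 without array 3 and 0.0664 without array 4.

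Nos3, the endothelial nitric oxide synthase, was the most even of the higher genes. Its log2 ratios were 0.25, 0.29, 0.30 and 0.18, and the levels of the groups did not overlap (adjusted p = 0.00528). A second Nos3 probe gave 0.25 ± 0.15 (SD, n = 4). Ecscr, an endothelial surface protein that regulates migration, had log2 ratios of 0.31, 0.31, 0.42 and 0.12 (adjusted p = 0.00609). Ramp2, the receptor partner through which adrenomedullin signals, was above 0 on arrays 1 to 3 and below 0 on array 4, with log2 ratios of 0.32, 0.18, 0.48 and -0.07. Its adjusted p of 0.0219 became 0.0775 without array 2 and 0.0928 without array 3. Esam, an adhesion molecule of endothelial tight junctions, was at 0.14 (SE 0.04, adjusted p = 0.0414). It lost its call in 10 of 16 alternative settings, and without array 1, 2, 3 or 4 its adjusted p was 0.0730, 0.171, 0.166 and 0.0639.

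Plvap encodes the diaphragm protein of fenestrated capillaries. Its probe at chr8:74021877-74021936 had levels of 843, 928, 814 and 979.5 in the control channel and 811, 769, 694 and 729 in the IWP-2 channel of arrays 1 to 4. The IWP-2 channel was the lower of the pair on every array, and the ranges of the groups did not overlap. The log2 ratio was -0.25 ± 0.15 (SD, n = 4) with an adjusted p of 0.0120, which became 0.0539 without array 3. A second Plvap probe gave -0.08 ± 0.03 (SD, n = 4), below 0 on all 4 arrays but with an adjusted p over all probes tested of 0.152. Hence, the size of the Plvap decrease differed between its probes.

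The other 7 genes of this group had fitted log2 ratios between 0.01 (Cd34, a sialomucin of vascular endothelium and blood progenitors) and 0.17 (Icam2, an adhesion molecule). Icam2 and Emcn, the latter encoding the sialomucin endomucin, were above 0 on all 4 arrays with adjusted p-values of 0.0627 and 0.107. Icam2 passed without array 1 (adjusted p = 0.0345). Eng, the TGF-beta co-receptor endoglin, was at 0.13 (adjusted p = 0.113) and passed without array 3 (adjusted p = 0.0463). Mmrn2, an extracellular matrix protein of vessels, and Clec14a, an endothelial lectin, were at 0.02 and 0.01, with adjusted p-values of 0.698 and 0.905. Egfl7, a secreted protein of growing vessels, had log2 ratios of 0.25, 0.04, 0.36 and -0.56. Its SD of 0.41 was the largest of the 35 genes, and array 4 alone was clearly below 0. Without array 4 its mean was 0.18 (adjusted p = 0.0584).

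Of the 3 VEGF receptor genes, Kdr was higher, and Flt1 and Flt4 did not pass. Kdr encodes VEGFR2, the main signalling receptor for VEGFA. Its probe at chr5:76329309-76329368 had levels of 23678, 18868, 18063 and 22025 in the control channel and 25853, 20307, 22198 and 23049 in the IWP-2 channel of arrays 1 to 4. The ranges overlapped, and the log2 ratio was 0.15 ± 0.10 (SD, n = 4) with an adjusted p of 0.0453. This call was lost in 11 of 16 alternative settings, with an adjusted p of 0.137, 0.200 and 0.0954 without array 2, 3 and 4. A second Kdr probe gave 0.11 ± 0.15 (SD, n = 4). Flt1, the VEGF decoy receptor, was at 0.06 (95% interval -0.07 to 0.20, adjusted p = 0.439), and its 2 other probes were at 0.01 and -0.03. Flt4, the receptor for VEGFC on lymphatic and growing endothelium, was at -0.04 (95% interval -0.14 to 0.05, adjusted p = 0.437). Its levels of between 98.9 and 109.5 lay close to the background, where the offset of the background correction pulls ratios towards 0.

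In the TIE and angiopoietin group, the ligands changed and the receptors did not pass the test. Angpt1, the activating ligand of the TIE2 receptor, is made mainly by mesenchymal and mural cells rather than by endothelium. Its probe at chr15:42256335-42256394 had levels of 6041, 4558, 5109 and 5341 in the control channel and 7413, 7878, 7150.1 and 7599 in the IWP-2 channel of arrays 1 to 4. The ranges did not overlap, and the log2 ratio was 0.52 ± 0.20 (SD, n = 4) (adjusted p = 0.00167). Angpt2, the context-dependent antagonist released by endothelial cells, had log2 ratios of 0.45, 0.27, 0.19 and 0.16 (adjusted p = 0.0123). All 4 were above 0, although the levels of the groups overlapped. Tek, which encodes TIE2, and Tie1, its co-receptor, were at 0.03 (95% interval -0.07 to 0.13, adjusted p = 0.649) and 0.12 (0.02 to 0.22, adjusted p = 0.0668).

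Angpt4, a further TIE2 ligand, was lower on each array. Its levels were 103, 106, 104 and 117 in the control channel and 89.0, 81.7, 92.1 and 88.0 in the IWP-2 channel of arrays 1 to 4. The control channel was well above background on all 4 arrays and the treated channel on none. Angpt4 was tested only through the control group, which favours a decrease, so its adjusted p of 0.00253 is not support for one. Thus, only a bound on the measured signal can be given, which was at least 1.21-fold lower with IWP-2. The same filter favours this bound, so it does not establish a decrease of Angpt4. This bound sets the mean control level against the treated level, or against the lowest signal still well above background on that array where that was higher. In the scanner's processed signals, which carry no offset, the log2 ratio was -1.29. It came from mean signals of 9.87 in control and 4.27 in treated channels, and is not an estimate of size. The deposited table of fold changes lists Angpt4 as unchanged. Whether such dim probes measure their gene was not tested.

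Transcription factors held 6 of the 18 increases. Sox7, Sox17 and Sox18 form the SOXF family, which specifies and maintains arterial and other endothelium. Sox17, the gene with the largest increase of the 35, was measured at chr1:4481503-4481562. Its levels were 4413, 2967, 3765 and 4079 in the control channel and 7330.4, 4944, 6062 and 5341 in the IWP-2 channel of arrays 1 to 4. The ranges did not overlap, and the log2 ratio was 0.64 ± 0.17 (SD, n = 4), equal to 1.55-fold (adjusted p = 8.74e-04). A second probe of Sox17 gave a log2 ratio of 0.66 ± 0.19 (SD, n = 4). Sox7 had log2 ratios of 0.14, 0.41, 0.23 and 0.24 (adjusted p = 0.00827). Sox18 had log2 ratios of 0.40, 0.15, 0.28 and 0.09 (adjusted p = 0.00793). On each of the 4 arrays the ratio of Sox17 was above those of Sox7 and Sox18, and the difference between these genes was not tested.

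**Figure D2:**
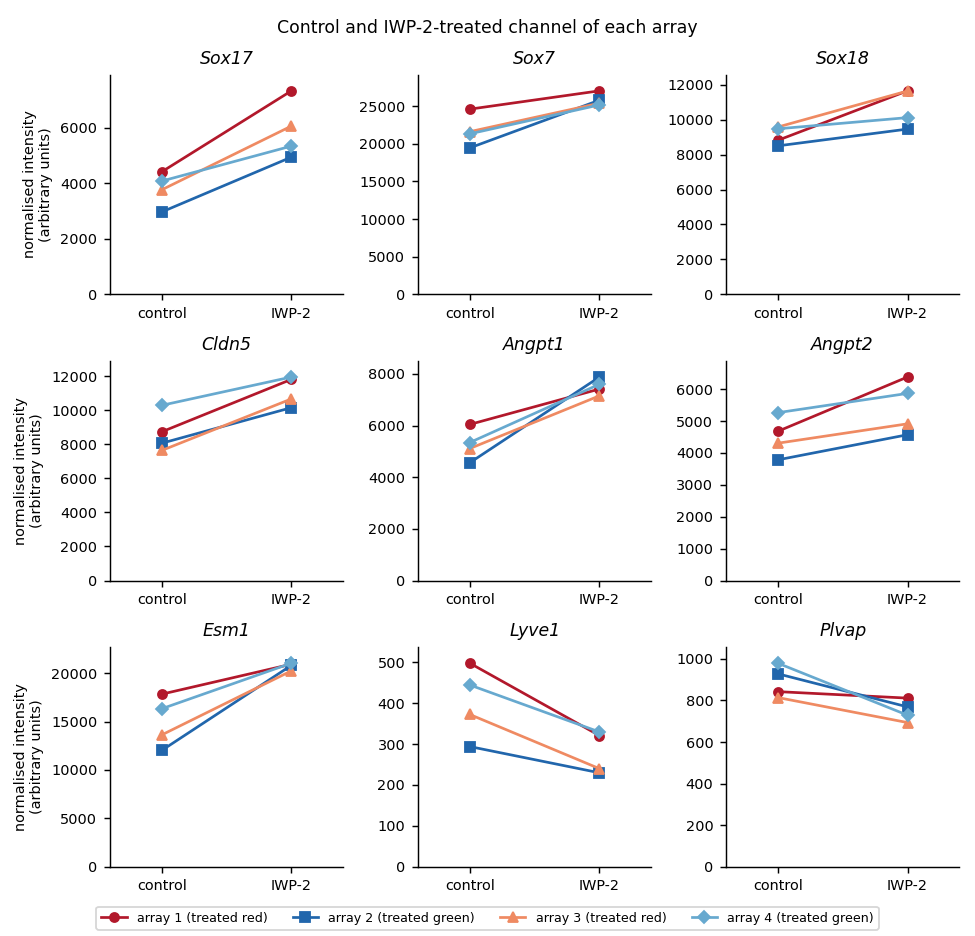
Normalised intensity (arbitrary units, from 0) of 9 endothelial genes in the control and the IWP-2 channel, with 1 line per array. Lines rise for the 3 SOXF genes, Cldn5, Angpt1, Angpt2 and Esm1 on all 4 arrays, and they fall for Lyve1 and Plvap.

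Among the ETS factors, Fli1 was higher, with log2 ratios of 0.09, 0.54, 0.11 and 0.29 (adjusted p = 0.0111), whereas Erg, a close relative in endothelium, was at 0.04 (95% interval -0.10 to 0.18, adjusted p = 0.631) on a dim probe. The bHLH genes Tal1 and Lyl1, which act in early endothelium and in blood cells, had log2 ratios of 0.40, 0.36, 0.19 and 0.11 and of 0.26, 0.12, 0.28 and -0.04. Their adjusted p-values were 0.0168 and 0.0383. The call of Tal1 was lost without array 1 or 2 (adjusted p = 0.0653 and 0.0506), and that of Lyl1 without array 1, 2 or 3 (adjusted p = 0.102, 0.178 and 0.122). Etv2, the ETS factor that starts the endothelial programme in early embryos, was lower. Its levels were 98.8, 115, 114 and 121 in the control channel and 87.8, 86.3, 86.4 and 86.2 in the IWP-2 channel of arrays 1 to 4. The treated channel was not well above background on any array, so only a bound on the measured signal can be given, at least 1.26-fold lower. Etv2 too was tested only through the control group, so neither this bound nor its adjusted p of 0.00302 is support for a decrease. In the processed signals the log2 ratio of Etv2 was -1.36, from mean signals of 11.3 in control and 4.36 in treated channels. This is not an estimate of size, and the deposited table of fold changes lists Etv2 as unchanged. A second Etv2 probe, which did not pass the filter on dim signals, was at -0.33.

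Of the tip cell, apelin and lymphatic genes, Esm1 and Apln were higher, Aplnr did not pass and Lyve1 was lower. Esm1 encodes endocan, a marker of tip cells at the front of sprouting vessels. Its probe at chr13:114008204-114008263 had levels of 17832, 12017, 13621 and 16326 in the control channel and 20932, 20820.2, 20249.6 and 21038 in the IWP-2 channel of arrays 1 to 4. The treated levels lay close together and above all control levels, whereas the control levels varied more. The log2 ratio was 0.49 ± 0.25 (SD, n = 4) (adjusted p = 0.00690). Apln, a peptide ligand of sprouting endothelium, had log2 ratios of 0.58, 0.27, 0.33 and -0.03. The adjusted p of 0.0186 became 0.0702 without array 1, and array 4 was close to 0. Its receptor Aplnr had log2 ratios of 0.26, -0.02, 0.00 and -0.16 (95% interval -0.11 to 0.15, adjusted p = 0.819).

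Lyve1, a hyaluronan receptor of lymphatic endothelium and of some tissue macrophages, had the largest decrease among the 33 genes well above background in both channels. Its probe at chr7:117994171-117994230 had levels of 498, 294, 373 and 445 in the control channel and 321, 229.9, 240.0 and 329.9 in the IWP-2 channel of arrays 1 to 4. The treated channel was the lower of the pair on every array, while the ranges of the groups overlapped. The log2 ratios were -0.63, -0.36, -0.63 and -0.43, with a mean of -0.51 ± 0.14 (SD, n = 4), equal to 1.43-fold lower (adjusted p = 3.55e-04). Of 5 lymphatic genes tested, Lyve1 was the only one past the threshold, and 15.0% of all genes were lower. Prox1, the master regulator of lymphatic identity, was at -0.09 (adjusted p = 0.199). Of 13 macrophage markers, none was lower and 11 were higher, against 15.0% and 18.1% of all genes. Among the higher ones were Adgre1 (F4/80) at 0.49 (SE 0.07, adjusted p = 0.00264) and the mannose receptor gene Mrc1 at 0.16 (SE 0.05, adjusted p = 0.0457). Which cells the Lyve1 decrease came from was not tested.

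For 9 of the 35 genes more than 1 probe was on the array, giving 10 further probes. The further probes shared the sign of the brightest probe in 6 of 10 cases. Where the brightest probe had passed the test (Sox17, Nos3, Kdr, Plvap and Etv2), the sign was shared in all 5. For Etv2 this says little, as neither probe was well above background in the treated channel of any array. The 4 differing signs were those of Cd34, Clec14a, Erg and 1 Flt1 probe, all with fitted values close to 0.

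**Figure D3:**
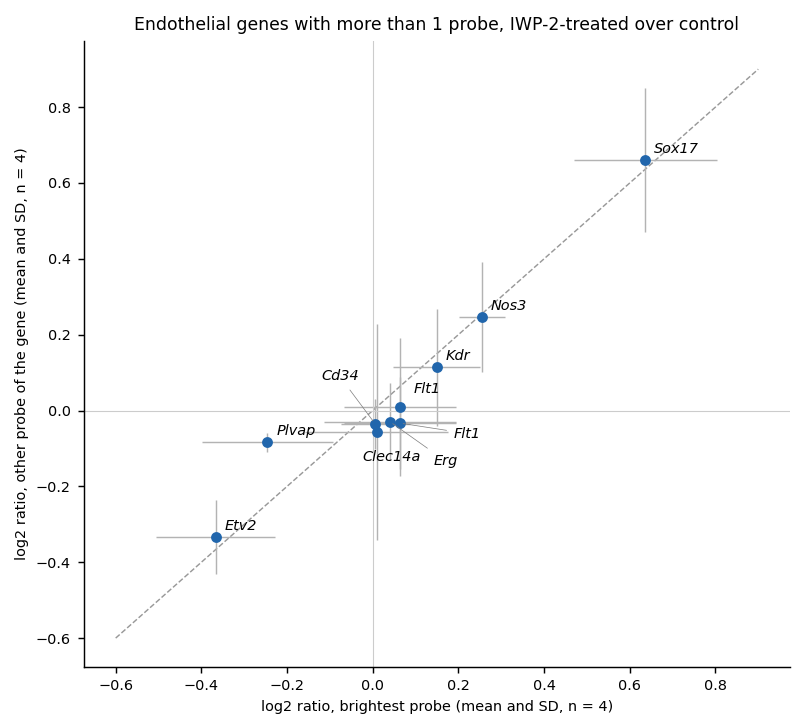
Mean log2 ratio (IWP-2-treated over control, with SD over 4 arrays) of the brightest probe of a gene on the x axis and of its other probe or probes on the y axis; the dashed line marks equal values. Sox17, Nos3, Kdr and Etv2 lie near the line, and Plvap lies above it, at -0.25 on the x axis and -0.08 on the y axis.

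A second list of 40 endothelial genes, none of them among the 35, was read in the same way, and 39 were tested. It had 18 higher and 3 lower genes (46.2% and 7.69%, against 18.1% and 15.0% of all genes), with a median log2 ratio of 0.18. On arrays 1 to 4 the medians were 0.19, 0.14, 0.19 and 0.05, so that array 4 was again the lowest. The largest increases were in Kank3 (log2 ratio 0.42, SE 0.04, adjusted p = 7.88e-04), which encodes an actin-regulating scaffold protein, and in the ETS factor gene Ets1 (log2 ratio 0.42, SE 0.04, adjusted p = 9.60e-04). Afap1l1 (log2 ratio 0.37, SE 0.04, adjusted p = 0.00163) and the ETS factor gene Elk3 (log2 ratio 0.30, SE 0.04, adjusted p = 0.00250) followed. The decreases were in Gja5, which encodes the arterial gap junction protein connexin 40 (log2 ratio -0.48, SE 0.09, adjusted p = 0.0104), the lectin gene Clec1a (log2 ratio -0.38, SE 0.04, adjusted p = 0.00138) and Prex2 (log2 ratio -0.20, SE 0.05, adjusted p = 0.0243).

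Ligands and partners of the receptors moved in both directions. Of 18 genes tested, 7 were higher and 3 were lower (38.9% and 16.7%, against 18.1% and 15.0% of all genes). Vegfa, the ligand of KDR and FLT1, did not pass (log2 ratio -0.08, SE 0.05, adjusted p = 0.316). Pgf, which binds FLT1 but not KDR, was lower (log2 ratio -0.49, SE 0.06, adjusted p = 0.00185). Vegfd, a ligand of FLT4 that is listed as Figf on the array, was lower (log2 ratio -0.53, SE 0.08, adjusted p = 0.00512), whereas Vegfc did not pass (log2 ratio 0.22, SE 0.08, adjusted p = 0.0824). Apela, the second ligand of the apelin receptor, was lower (log2 ratio -0.35, SE 0.05, adjusted p = 0.00289), opposite in sign to Apln. Nrp2, a co-receptor for VEGFC, was higher (log2 ratio 0.68, SE 0.05, adjusted p = 3.54e-04), as were the matrix protein gene Svep1 (log2 ratio 0.43, SE 0.05, adjusted p = 0.00158) and Angptl4, which encodes a secreted inhibitor of lipoprotein lipase (log2 ratio 0.40, SE 0.04, adjusted p = 0.00114). Adm, which encodes adrenomedullin and signals through RAMP2 and CALCRL, was higher (log2 ratio 0.32, SE 0.04, adjusted p = 0.00240), as was Calcrl (log2 ratio 0.17, SE 0.05, adjusted p = 0.0353).

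A list of WNT-dependent genes of brain endothelium, which also holds ligand and receptor genes, had more decreases than increases. Of 14 tested, 6 were lower and 1 was higher (42.9% and 7.14%, against 15.0% and 18.1% of all genes). Apcdd1 and Lef1 of this list are also general WNT targets. Beside these, the lower ones were the norrin gene Ndp (log2 ratio -2.09, SE 0.13, adjusted p = 1.67e-04), the transcription factor gene Foxf2 (log2 ratio -1.38, SE 0.04, adjusted p = 1.54e-05), Mfsd2a, a lipid transporter of the blood-brain barrier (log2 ratio -0.81, SE 0.07, adjusted p = 6.67e-04), and Adgra2, a co-receptor for WNT7 ligands (log2 ratio -0.23, SE 0.05, adjusted p = 0.0119). The higher one was Tspan12, a norrin receptor partner (log2 ratio 0.18, SE 0.05, adjusted p = 0.0392). Whether these transcripts came from endothelial cells of the ureter cannot be read from whole tissue. Plvap, which is known to rise in brain endothelium when WNT signalling is lost, was lower here, as given above. The expression of artery genes was mixed, with 3 of 10 higher and 2 lower, against 18.1% and 15.0% of all genes. Hey2, a Notch target of arteries and of other tissues, was lower (log2 ratio -0.93, SE 0.07, adjusted p = 4.43e-04), and Gja5 was lower, as given above. The Notch ligand gene Jag2 (log2 ratio 0.39, SE 0.05, adjusted p = 0.00203), the ephrin gene Efnb2 (log2 ratio 0.27, SE 0.06, adjusted p = 0.0152) and the chemokine receptor gene Cxcr4 (log2 ratio 0.14, SE 0.04, adjusted p = 0.0444) were higher. Of 5 vein genes, Nr2f2 and Nrp2 were higher.

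Most epithelial and macrophage markers and the globin genes were higher as well. Mesenchymal, mural cell, and platelet and progenitor markers were mixed or mostly did not pass. Over all genes, 18.1% were higher and 15.0% were lower. All 7 epithelial markers were higher, with a median log2 ratio of 0.30. Of 13 macrophage markers 11 were higher (median 0.20), of 10 red blood cell markers 5 were higher (median 0.18), and of 6 mesenchymal markers 1 was higher (median 0.11). The 5 higher red blood cell markers were all globin genes. On arrays 1 to 4 the red blood cell medians were 0.21, 0.07, 0.36 and 0.01, and, as for the endothelial genes, arrays 1 and 3 were above arrays 2 and 4. Summed levels of the red blood cell markers were between 309812 and 467924 in control and between 436311 and 492750 in treated channels. For the 35 endothelial genes the sums were between 188334 and 230743 in control and between 229105 and 267386 in treated channels. For macrophage markers they were between 24112 and 30912 in control and between 28826 and 34106 in treated channels. The part of blood cells or of the tissue's make-up in the endothelial values was not tested. Of 10 mural cell markers, Pdgfrb, the receptor that recruits pericytes (log2 ratio 0.80, SE 0.04, adjusted p = 9.34e-05), and Anpep (log2 ratio 0.38, SE 0.06, adjusted p = 0.00438) were higher. The pericyte markers Rgs5 (log2 ratio -0.38, SE 0.08, adjusted p = 0.0144) and Cspg4 (log2 ratio -0.27, SE 0.07, adjusted p = 0.0326) were lower. Of 8 platelet and progenitor markers, Kit (log2 ratio 0.46, SE 0.05, adjusted p = 0.00100) and Pf4 (log2 ratio 0.56, SE 0.14, adjusted p = 0.0223) were higher and Runx1 (log2 ratio -0.16, SE 0.04, adjusted p = 0.0285) was lower.

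**Figure D4:**
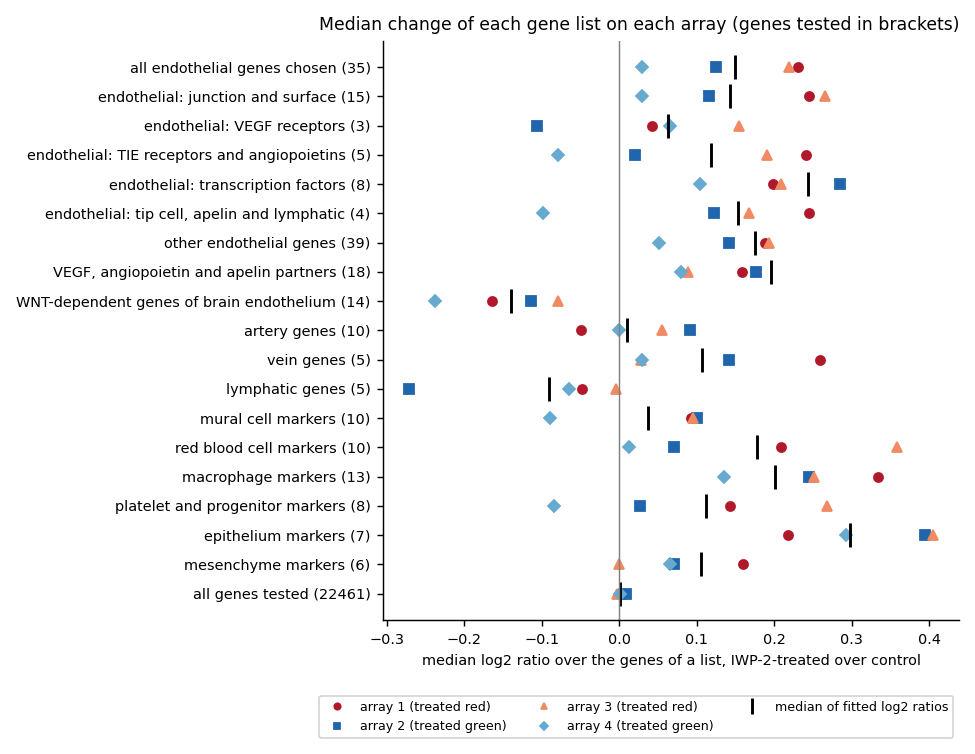
Median log2 ratio (IWP-2-treated over control, x axis) of each gene list on each of the 4 arrays, with the median of the fitted values as a black bar and the number of genes tested in brackets. The 35 endothelial genes have a median of 0.15, the other endothelial genes 0.18, macrophage markers 0.20 and red blood cell markers 0.18, and array 4 is the lowest for all 4 of these lists.

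Promoters were read for the letters that ETS factors and the WNT-responsive TCF/LEF factors bind, as members of both the ETS and the WNT lists differed between groups. The sequences are those of RefSeq (build GRCm38.p6, which differs from that of the probes), taken as the 250 bases before the transcription start. Of the 35 genes, 18 had an entry, with 23 promoters in all, and Angpt1, Angpt2, Aplnr, Cdh5, Ecscr, Esam, Fli1, Icam2, Lyve1, Mmrn2, Nos3, Pecam1, Plvap, Ramp2, Sox17, Sox18 and Sox7 were not matched. They were searched on both strands for an ETS motif, spelled CAGGAAG or CCGGAAG, and for a TCF/LEF motif, through which beta-catenin acts, spelled CTTTGAT or CTTTGTT. ETS letters were found in 34.8% of the 23 promoters and in 17.0% of all 32851 promoters. TCF/LEF letters were found in 17.4% of the 23 promoters (4 genes) and in 8.1% of all. A match is a description of letters and not a bound site. Of the 6 higher genes with an entry, Apln and Lyl1 held ETS letters, and Apln held TCF/LEF letters as well. Among the 10 genes with an entry that did not pass, 4 held ETS letters and 2 held TCF/LEF letters. Of the 2 lower genes with an entry, each on a dim probe, Angpt4 held both motifs and Etv2 held neither. The 2 most increased genes with an entry, Esm1 and Cldn5, held neither. The promoters of Esm1 (chr13:113209409-113209658, plus strand), Cldn5 (chr16:18776597-18776846, plus strand), Apln (chrX:48034854-48035103, minus strand) and Angpt4 (chr2:151910957-151911206, plus strand) are shown 5′ to 3′ as the extremes of this comparison, with motif letters in capitals.
Esm1: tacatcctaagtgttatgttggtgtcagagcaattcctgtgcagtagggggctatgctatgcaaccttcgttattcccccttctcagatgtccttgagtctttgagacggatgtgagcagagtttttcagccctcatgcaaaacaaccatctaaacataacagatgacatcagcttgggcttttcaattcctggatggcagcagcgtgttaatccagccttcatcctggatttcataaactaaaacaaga
Cldn5: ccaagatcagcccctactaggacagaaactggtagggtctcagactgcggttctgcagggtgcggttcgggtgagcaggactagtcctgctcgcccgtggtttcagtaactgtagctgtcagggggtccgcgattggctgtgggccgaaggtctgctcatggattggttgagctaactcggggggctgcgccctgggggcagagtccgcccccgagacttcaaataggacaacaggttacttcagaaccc
Apln: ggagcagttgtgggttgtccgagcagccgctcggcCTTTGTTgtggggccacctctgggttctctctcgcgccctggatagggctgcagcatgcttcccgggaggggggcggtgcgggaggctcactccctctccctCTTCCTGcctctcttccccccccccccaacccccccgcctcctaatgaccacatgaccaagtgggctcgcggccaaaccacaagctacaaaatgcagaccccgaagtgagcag
Angpt4: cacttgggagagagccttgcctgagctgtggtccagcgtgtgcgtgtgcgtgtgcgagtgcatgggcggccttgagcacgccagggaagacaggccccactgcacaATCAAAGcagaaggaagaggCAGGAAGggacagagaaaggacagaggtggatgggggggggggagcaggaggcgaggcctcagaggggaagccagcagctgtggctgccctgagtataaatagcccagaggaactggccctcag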

How the data were processed

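Total RNA of control and IWP-2-treated E12.5 ureters was labelled with Alexa555 or Alexa647 and hybridised to 4 two-colour Agilent arrays. The authors quantified the scans with Agilent Feature Extraction 10.7.3.1. The deposited files hold spot intensity values for both channels, the background, processed signals and a log10 ratio of red over green, which served here only to check the direction. Per the file headers, probes were placed on mm9. The authors also deposited a table of signed fold changes, treated here as a score whose normalization is not given in the sources used here. Its values correlated with the treated over control ratios of the processed signals (r between 0.987 and 0.992 over 20324 bright probes).

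Intensities were corrected by normexp (offset 50) and normalised by loess (span 0.3) with limma 3.58.1 in R 4.3.3. Control spots and outlier spots (3.01 to 3.38% per array) were left out, and the 4 spots of each of 39429 probes were averaged. A gene was tested if a probe was well above background in more than 0.5 of its spots in 1 group on all 4 arrays, and the brightest passing probe stood for the gene. The ratios were fitted with a dye term, and p-values were adjusted by Benjamini-Hochberg over 22461 genes. The number of arrays limits the precision. Channel levels are loess-normalised ratios combined with between-array quantile-normalised mean intensities (Aquantile). The fit was also run on simulated data with known changes, and it missed most of the smallest of these. Genes that did not pass may therefore still have changed slightly.

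The 35 genes and all lists were chosen with earlier results of these data known. All 35 genes are accounted for; of the other lists, those past the threshold with the largest changes, at most 6 per list, are named, with the genes that a result turns on; Mrc1 and Prex2 were named after their values were seen. Names were taken from the files, or through RefSeq synonyms (Vegfd as Figf). Exoc3l2 and Ccl21a had no tested probe under these names. Positions in exons or UTRs were not analysed here. In the list of WNT-dependent genes of brain endothelium, 1 gene is not reported here.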

Additional observations from a re-analysis of the deposited data

Results flagged for a closer look

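For Sox17, 1 of the 4 arrays lay far from the others: array 4 gave a log2 ratio of 0.39, whereas the other 3 arrays lay between 0.69 and 0.74 (gap to range ratio 0.858, above the 95% critical value of Dixon for 4 values). The second Sox17 probe was also lowest on array 4, at 0.42. Of 42 results examined in this way, 1 stood out, and chance gives about 1 in 20.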

How the results depend on the processing

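None of the 22 called genes reversed its direction in any of the alternative settings in which it could be tested, which were 14 for Angpt4 and Etv2, 15 for Lyve1 and 16 for the others. Cldn5 and Nos3 kept their calls throughout. The median of the 35 genes kept its direction in every setting. In the deposited table of fold changes, rounded to 1 decimal, 4 of the 35 genes were higher and 1 lower, and 9 and 0 of the other endothelial genes, in the limma fit; Angpt4 and Etv2 are listed there as unchanged on every array. With well above background required in both channels, 2 of 33 were lower (15.2% of all genes), because Angpt4 and Etv2 were no longer tested, and with a mean processed signal over 100 it was 1 of 29 (17.4% of all genes), and 1 of the other endothelial genes. With no dye term, 12 were higher, and 2966 instead of 4069 of all genes. The same replicate numbers mark the 2 channels of an array. With no replicate block, that is with the 8 channels as separate samples rather than paired on their arrays, 8 of the 35 were higher, and 7 higher and 1 lower of the other endothelial genes. The cause of these differences was not tested.

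Leaving out each array in turn gave 13 to 15 higher and 3 to 4 lower of the 35 genes, with medians of 0.14 to 0.18, and 13 to 21 higher and 2 to 3 lower of the others. Signs turned only among genes that had not passed. Without 1 array, log2 ratios ranged from -0.042 to 0.053 for Cd34, -0.00909 to 0.058 for Mmrn2, -0.034 to 0.052 for Clec14a, -0.13 to 0.18 for Egfl7, -0.00780 to 0.13 for Flt1, -0.00640 to 0.062 for Tek, -0.020 to 0.100 for Erg and -0.045 to 0.084 for Aplnr. With median centring Cd34 was at -0.023 and Egfl7 at -0.00262, and with all probes of a gene averaged Cd34 was at -0.015 and Clec14a at -0.024. All arrays shared 1 slide and 1 scan, so that a slide or scan block was not run. Dim probes (Flt4, Erg, Angpt4, Etv2) limit what can be read from these genes.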
